A study of Mus musculus with 6 samples.

Results

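The genes described here are 34 that act in protein folding and quality control in the endoplasmic reticulum (ER), taken by symbol out of 56748 rows in a table of gene expression from newborn mouse hearts. They were chosen by function: 11 chaperones and their partners, 10 disulfide and prolyl isomerases, 10 genes of ER-associated degradation (ERAD) and the Sec61 channel, and 3 sensors or transcription factors of the unfolded protein response. All 34 were found once each. RNA was sequenced from hearts frozen at postnatal day 1. The 3 cKO libraries came from mice with a cardiac-specific knockout of Kdm5b and the 3 FF libraries from control mice labelled Kdm5b FF and titled Flox. Kdm5b encodes a demethylase of lysine 4 on histone H3. Neither labels nor design text name the Cre line, the strain, the sexes or any pooling of hearts. They also do not say that each library was a separate animal, so the p-values cover only the variation among these libraries, which may be technical.

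Proteins of the secretory pathway enter the ER through the Sec61 channel and fold there with the help of the Hsp70 chaperone BiP, the lectins calreticulin and calnexin, and enzymes that form disulfide bonds. Chains that fail to fold are passed back to the cytosol and degraded, which is ERAD. When unfolded protein accumulates, the sensor kinase encoded by Ern1 splices the mRNA of the transcription factor XBP1, and ATF6 is cut to release another transcription factor. Both raise ER chaperone genes through short promoter sequences, best known as the ER stress response element (ERSE). In heart muscle, calreticulin is known as a gene of the embryonic heart that is lower in the adult.

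Because these elements are how such genes are known to be switched on together, the promoters of the members are described first, though they were read after the tests. RefSeq windows on GRCm38.p6, from 250 bases before to 50 after each annotated start, covered 28 of the 34 members in 32 windows. Hyou1, Hspa13, Manf, Derl1, Sec61a1 and Atf6 had no window. The ERSE was searched on both strands as exact matches to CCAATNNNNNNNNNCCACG, so that imperfect copies were not counted. It was present in 9 of the 28 members, 32.1%, and in 37 of the 27025 genes with a window, 0.137%. The element was defined in the literature on genes of this kind, so its presence is a description of the set. The shorter ERSE-II, ATTGG and CCACG with 1 base between them, was in Herpud1 before the start and in Dnajb11 from 7 bases after it, and in 12 genes of the 27025, 0.0444%. No member held both elements. The core of the unfolded protein response element, TGACGTGG, was in Txndc5 alone among the members and in 193 genes in all, 0.714%.

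The upstream 250 bases of Hspa5, which encodes BiP, are shown whole as the reference promoter of the family, with the exact ERSE match in capitals (chr2:34771840-34772089, plus strand, GRCm38.p6). The element starts 65 bases before the annotated start.
Hspa5: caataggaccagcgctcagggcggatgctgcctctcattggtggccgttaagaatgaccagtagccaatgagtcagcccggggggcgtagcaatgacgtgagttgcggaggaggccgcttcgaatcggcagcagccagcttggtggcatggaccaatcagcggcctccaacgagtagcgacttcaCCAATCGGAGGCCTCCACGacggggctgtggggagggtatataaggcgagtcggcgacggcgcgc

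For the other members with an ERSE before the start, each element is shown in capitals with 20 bases on either side, read along the strand of the gene. In Calr, Creld2 and Derl3 the element runs against the gene and reads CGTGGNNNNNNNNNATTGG. Hsp90b1 held a copy in each orientation, starting 212 and 107 bases before the start.
Calr, chr8:84847055-84847113: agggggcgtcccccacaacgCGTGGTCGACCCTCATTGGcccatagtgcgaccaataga
Pdia6, chr12:17266471-17266529: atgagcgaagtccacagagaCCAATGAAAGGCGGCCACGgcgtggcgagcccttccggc
Creld2, chr15:88819500-88819558: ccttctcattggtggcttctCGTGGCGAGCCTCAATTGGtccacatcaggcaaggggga
Dnajc3, chr14:118937807-118937865: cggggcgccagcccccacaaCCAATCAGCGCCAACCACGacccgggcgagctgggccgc
Hsp90b1, upper copy, chr10:86705618-86705676: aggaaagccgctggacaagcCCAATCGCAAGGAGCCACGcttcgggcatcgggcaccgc
Hsp90b1, lower copy, chr10:86705513-86705571: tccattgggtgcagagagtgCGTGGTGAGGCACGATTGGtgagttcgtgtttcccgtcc
Canx, chr11:50325780-50325838: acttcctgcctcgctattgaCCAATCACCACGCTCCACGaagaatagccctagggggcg
Syvn1, chr19:6046512-6046570: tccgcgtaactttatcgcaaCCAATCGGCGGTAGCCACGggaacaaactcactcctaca
Derl3, chr10:75893222-75893280: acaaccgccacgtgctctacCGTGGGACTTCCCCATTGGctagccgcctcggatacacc
The ERSE-II of Herpud1 begins 52 bases before its start.
Herpud1, chr8:94386357-94386407: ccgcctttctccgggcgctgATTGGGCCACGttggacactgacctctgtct

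Levels are in FPKM, a read count divided by gene length and a library size. Reads over all genes, recovered from these values, were 15658893 to 20339926 per library. The library size used was not equal to these reads. It was 1.03, 1.02 and 1.07 times them in cKO replicates 1, 2 and 3, and 0.960, 1.02 and 0.986 times in FF replicates 1, 2 and 3. By the table's coordinates Hspa5 lies on chromosome 2 at 34661982 to 34667559, Calr on chromosome 8 at 85568479 to 85573563, Manf on chromosome 9 at 106715511 to 106769178 and Pdia6 on chromosome 12 at 17316546 to 17334771. These are not GRCm38 positions, and GRCm39 is the other mouse build in the submitters' processing notes. FF replicate 3 stood apart. Across genes it correlated with the other libraries at 0.880 to 0.909, whereas the other 5 correlated with each other at 0.954 to 0.984, and its summed level of 12 thymocyte markers was 279 FPKM, against at most 1.67 elsewhere. Results are therefore given with 6 libraries and without FF replicate 3, 2 comparisons that share the other 5 libraries. Heart muscle markers identified the tissue in every library, with summed levels of 5983 to 7124 FPKM in cKO and 5892 to 7248 FPKM in FF hearts. Kdm5b had 2.80, 3.03 and 2.75 FPKM in cKO hearts and 3.19, 3.25 and 3.92 FPKM in FF hearts. All cKO values lay below the FF values, but the log2 difference of -0.20 was not past the threshold (adjusted p = 0.447, limma with Benjamini-Hochberg adjustment). The deleted exons are not named in the labels, and reads outside them would still count toward the gene. Which exons or cells gave the remaining Kdm5b reads was not tested.

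Without FF replicate 3, 10 of these genes were lower in cKO hearts past the threshold, all of them chaperones or isomerases, and with all 6 libraries none was. The summed level of the 34 genes was 739.7, 779 and 784 FPKM in cKO hearts, against 1078, 960.5 and 1169 FPKM in FF hearts. Every cKO sum lay below every FF sum. Chaperones summed to 325 ± 4.02 FPKM in cKO and 508 ± 49.2 FPKM in FF hearts, isomerases to 299 ± 15.5 FPKM in cKO and 397 ± 40.1 FPKM in FF hearts, and ERAD and channel genes to 112 ± 5.76 FPKM in cKO and 124 ± 30.8 FPKM in FF hearts (SD, n = 3 each). Calr carried part of this. Without it the chaperone sum was 251.4, 250.1 and 250.1 FPKM in cKO hearts and 386.7, 330.4 and 242.6 FPKM in FF hearts, so that FF replicate 3 lay below every cKO heart. The sum of all members without Calr still did not overlap, at 668 to 707 FPKM in cKO and 836 to 913 FPKM in FF hearts. Levels in bulk tissue cannot tell fewer cells of a type from less RNA per cell.

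Of the 34 genes, 32 had a mean of at least 1 FPKM over the 6 libraries and entered the test, which was limma on log2(FPKM + 1) across 12678 genes with Benjamini-Hochberg adjustment at 0.05. With 6 libraries, 0 of the 32 passed, where 0.0947% of all genes tested were called lower and 0.0710% higher, 0.166% in all. At an unadjusted p under 0.05, 12 were lower and 0 higher, against 9.55% and 8.39% of all genes, 17.9% in all. Without FF replicate 3, 10 of the 32 fell, 31.2%, against 6.26% of all genes tested, and 0 rose, against 5.73%, with 12.0% of all genes called in either direction. They were 6 of 11 chaperones (Hspa5, Calr, Manf, Sdf2l1, Dnajb11 and Dnajc3) and 4 of 9 isomerases (Pdia3, Pdia4, Pdia6 and Creld2). None of the 9 ERAD and channel genes or the 3 sensors passed. The median log2 difference of the 32 genes was -0.23 in both comparisons, against 0.01 over all genes tested with 6 libraries and -0.01 without FF replicate 3. The 10 calls rest on 2 FF libraries: 0 were left without FF replicate 1 or without FF replicate 2, and 1 (Pdia6) without cKO replicate 3. The same holds for the table as a whole, in which 0 of the 12678 genes were called without either FF library and 97 without cKO replicate 3. With no filter on low values, 0 members and 0 genes in all were called. After a correction for gene GC content in each library, Hspa5, Calr, Manf, Sdf2l1, Pdia6 and Creld2 passed with 6 libraries, where 1.82% of all genes were called lower, and none passed when a replicate block was added to that correction.

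**Figure D1:**
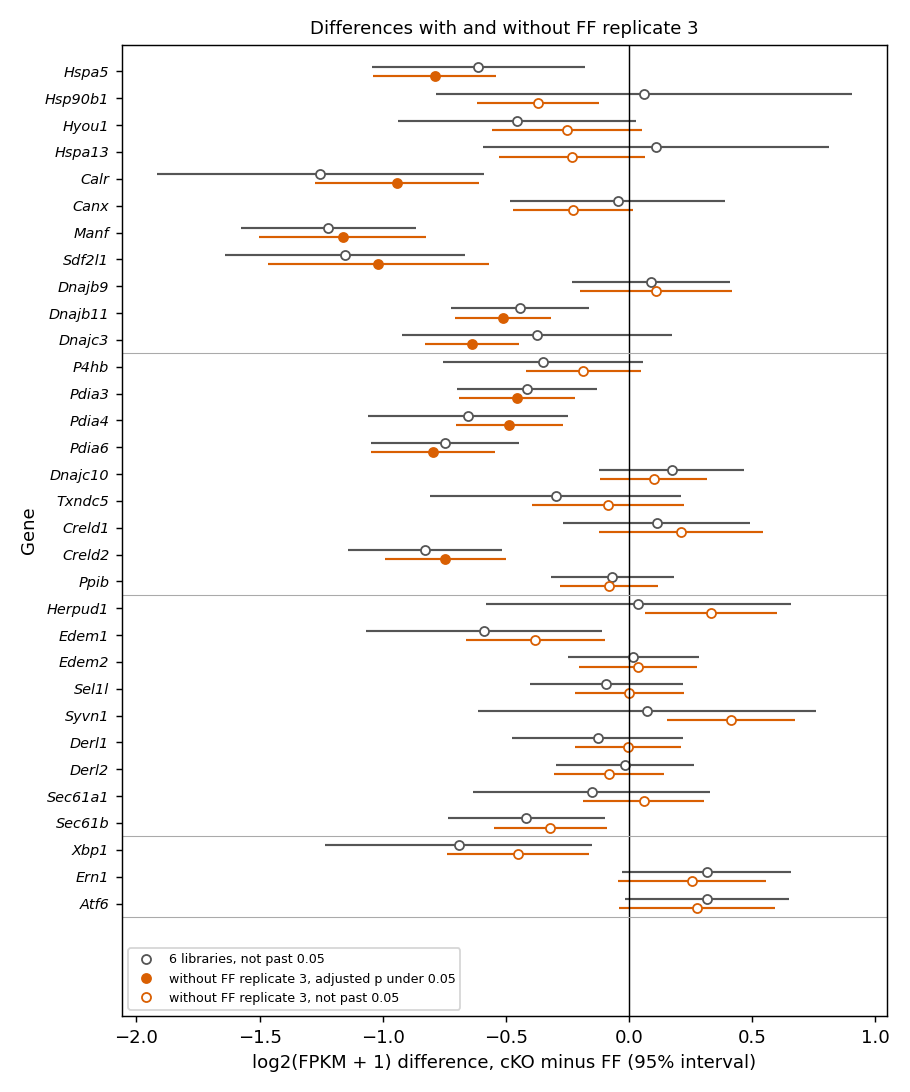
Log2(FPKM + 1) difference of cKO minus FF hearts for the 32 genes tested, with 95% intervals, in the order chaperones, isomerases, ERAD and channel genes, and sensors. Grey is the fit with 6 libraries and orange the fit without FF replicate 3, where filled points have an adjusted p under 0.05 (10 genes, all below 0).

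A simpler reading of the same values counts genes whose groups did not overlap. In 15 of the 32 all 3 cKO values lay below all 3 FF values, where this held for 14.5% of all genes tested, and in 2 (Ern1 and Atf6) all cKO values lay above, where it held for 13.5%. These 15 included 9 of the 10 genes called without FF replicate 3, all but Dnajc3. The others were Hyou1, P4hb, Ppib, Edem1, Sec61b and Xbp1. The median coefficient of variation over the 32 genes was 6.61% in cKO and 20.3% in FF hearts, against 10.6% in cKO and 22.9% in FF hearts over all genes tested. The larger FF value came with FF replicate 3: over FF replicates 1 and 2 alone it was 5.69% for the 32 genes and 8.15% for all genes tested. A median coefficient from 2 values runs lower than one from 3 at the same spread. Part of this fall is therefore built in, and the values from 2 libraries are not comparable with those of the 3 cKO hearts.

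Among the chaperones the differences were largest for Manf and Sdf2l1 and for calreticulin. Manf, which encodes a small ER protein that binds BiP and can be secreted under stress, had 7.03, 6.65 and 6.29 FPKM in cKO hearts and 18.8, 13.8 and 18.3 FPKM in FF hearts. The groups stood well apart in all 6 libraries. Its log2 difference was -1.22 (SE 0.15, adjusted p = 0.0549) with 6 libraries and -1.16 (SE 0.14, adjusted p = 0.0164) without FF replicate 3, both from limma with Benjamini-Hochberg adjustment. The annotated span of Manf overlaps Rbm15b on the same strand, which had 6.28 to 7.85 FPKM in cKO and 7.87 to 15.1 FPKM in FF hearts. On the other strand it overlaps Dcaf1, which had 4.10 to 5.39 FPKM in cKO and 2.71 to 3.94 FPKM in FF hearts. How reads shared by overlapping genes were counted is not stated.

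Sdf2l1, a partner of the ER J proteins, had 1.19, 2.33 and 1.58 FPKM in cKO hearts and 4.60, 4.18 and 6.13 FPKM in FF hearts, from 26 to 130 reads per library. The highest cKO value was well under the lowest FF value. The log2 difference was -1.15 with 6 libraries and -1.02 (SE 0.19, adjusted p = 0.0270, limma) without FF replicate 3. Its promoter window held no exact match to any of the 3 motifs.

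Calr, the gene of the calcium-binding lectin chaperone calreticulin, had 71.7, 72.0 and 79.4 FPKM in cKO hearts and 166, 125 and 275 FPKM in FF hearts. FF replicate 3 was the highest library, and cKO hearts were below all FF hearts with or without it. The cKO mean differed from the FF mean by -60.5% with 6 libraries and by -48.8% without FF replicate 3, where the log2 difference was -0.94 (SE 0.14, adjusted p = 0.0178, limma). Canx encodes the membrane-bound relative calnexin and did not pass. It had 67.5, 66.1 and 68.8 FPKM in cKO hearts and 86.2, 72.8 and 53.9 FPKM in FF hearts, with FF replicate 3 the lowest of all libraries, and a log2 difference of -0.23 (95% interval -0.47 to 0.01) without that library.

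Hspa5 had 68.5, 69.5 and 67.7 FPKM in cKO hearts and 130.4, 109 and 82.0 FPKM in FF hearts. The 3 cKO values lay within 2 FPKM of each other, and FF replicate 3 was the FF heart nearest to them. The log2 difference was -0.61 (SE 0.18) with 6 libraries and -0.79 (SE 0.10, adjusted p = 0.0171, limma) without FF replicate 3. Hsp90b1, the ER paralogue of Hsp90, had 62.8, 57.5 and 59.4 FPKM in cKO hearts and 84.0, 71.7 and 31.1 FPKM in FF hearts. Here FF replicate 3 was below all other libraries, so the log2 difference was 0.06 with it and -0.37 (SE 0.10, adjusted p = 0.0629, limma) without it.

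**Figure D2:**
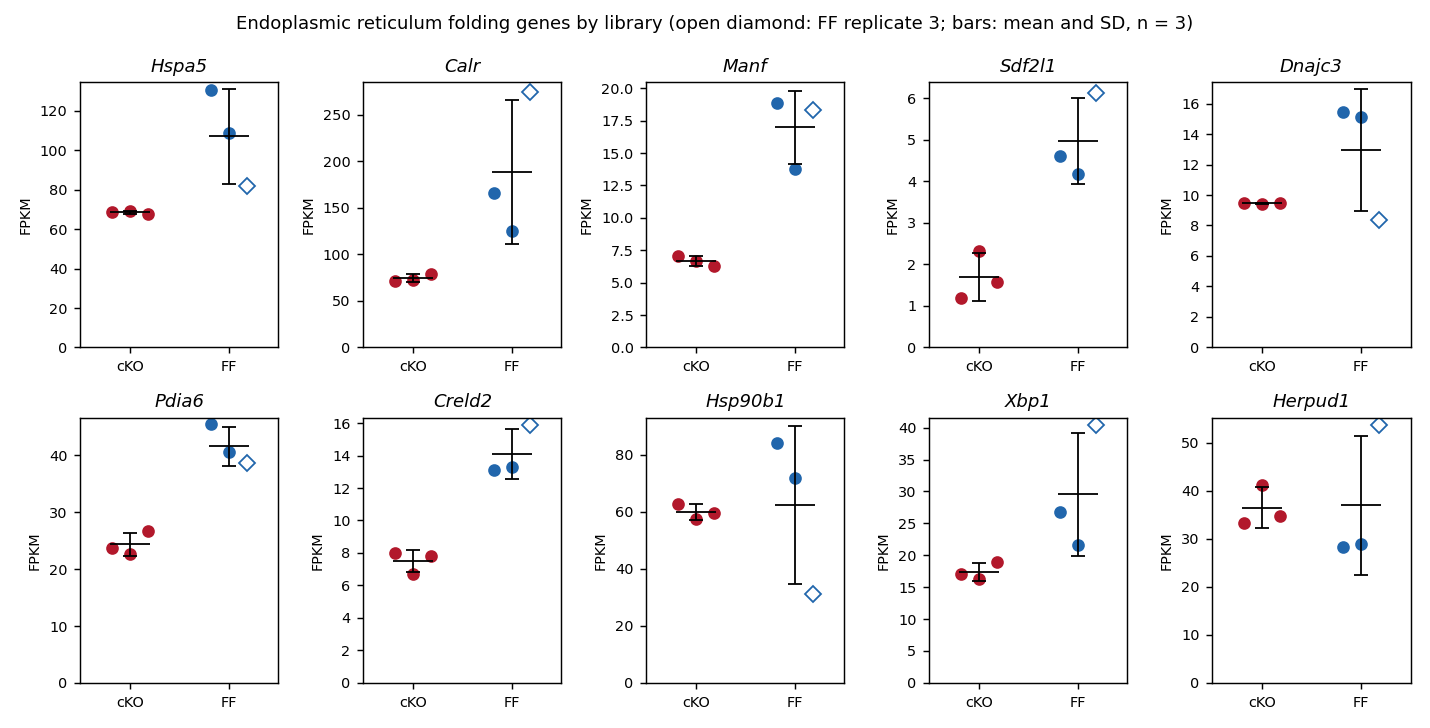
FPKM of 10 genes in each library, with cKO on the left and FF on the right of each panel, and bars for the mean and SD (n = 3). The open diamond is FF replicate 3, which lay far above the other FF hearts for Calr, Xbp1 and Herpud1 and far below them for Hsp90b1 and Dnajc3.

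The J proteins deliver substrates to BiP and stimulate its ATPase. Dnajb11 had 16.2, 17.6 and 17.0 FPKM in cKO hearts and 24.7, 24.4 and 21.2 FPKM in FF hearts, with no overlap. Dnajc3, which is also known as an inhibitor of eIF2-alpha kinases, had 9.48, 9.40 and 9.48 FPKM in cKO hearts and 15.4, 15.1 and 8.36 FPKM in FF hearts, so that FF replicate 3 lay under the cKO range. Their log2 differences without that library were -0.51 (SE 0.08, adjusted p = 0.0207) and -0.64 (SE 0.08, adjusted p = 0.0164), from limma. Dnajb9, a widely used marker of XBP1 activity, had 10.1, 12.7 and 9.85 FPKM in cKO hearts and 10.5, 9.42 and 10.4 FPKM in FF hearts. These groups overlapped, and the interval of its log2 difference without FF replicate 3 ran from -0.20 to 0.42. Hyou1, the exchange factor of BiP, had 4.25, 4.06 and 5.30 FPKM in cKO hearts and 5.82, 5.32 and 8.98 FPKM in FF hearts, short of the threshold. The low-level Hsp70 relative Hspa13 was at 4.50 ± 0.252 FPKM in cKO and 4.39 ± 2.04 FPKM in FF hearts (SD, n = 3 each).

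Of the disulfide isomerases, Pdia6 stood apart in every library, with 23.8, 22.7 and 26.6 FPKM in cKO hearts and 45.5, 40.6 and 38.7 FPKM in FF hearts. FF replicate 3 lay near the other FF hearts. The log2 difference was -0.75 (SE 0.13, adjusted p = 0.0673) with 6 libraries and -0.80 (SE 0.10, adjusted p = 0.0169) without FF replicate 3, in limma. Creld2, an ER stress-induced protein with isomerase activity, had 7.97, 6.70 and 7.82 FPKM in cKO hearts and 13.1, 13.3 and 15.9 FPKM in FF hearts, again with no overlap, and a log2 difference of -0.75 (SE 0.10, adjusted p = 0.0172, limma) without that library. Its membrane-anchored paralogue Creld1, a gene of heart septation, had 5.67, 6.55 and 7.94 FPKM in cKO hearts and 5.66, 5.57 and 7.14 FPKM in FF hearts. The log2 difference of Creld1 was 0.21 (95% interval -0.12 to 0.54) without FF replicate 3. Whether the paralogues differed from each other was not tested.

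Pdia3, the isomerase that works with calreticulin and calnexin on glycoproteins, had 67.6, 72.2 and 70.7 FPKM in cKO hearts and 103.7, 90.0 and 88.4 FPKM in FF hearts. Pdia4 had 19.8, 22.4 and 21.8 FPKM in cKO hearts and 30.9, 29.5 and 43.3 FPKM in FF hearts. Both were lower in every cKO heart, with log2 differences without FF replicate 3 of -0.46 (SE 0.10) and -0.49 (SE 0.09). P4hb, the founding protein disulfide isomerase and the most abundant member per length after Calr in FF hearts, had 100.5, 114 and 111 FPKM in cKO hearts and 126, 122 and 174 FPKM in FF hearts. Its log2 difference was -0.19 (95% interval -0.42 to 0.05) without FF replicate 3. Txndc5 was at 25.6 ± 2.88 FPKM in cKO and 32.3 ± 9.22 FPKM in FF hearts, Dnajc10, an ER reductase, at 17.4 ± 1.15 FPKM in cKO and 15.4 ± 1.42 FPKM in FF hearts, and the prolyl isomerase Ppib at 16.7 ± 0.306 FPKM in cKO and 17.5 ± 0.700 FPKM in FF hearts (SD, n = 3 each). P4hb and these 3 did not pass. Fkbp11, another prolyl isomerase, was under the filter, with 0.647 to 0.917 FPKM in cKO and 0.878 to 1.08 FPKM in FF hearts.

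**Figure D3:**
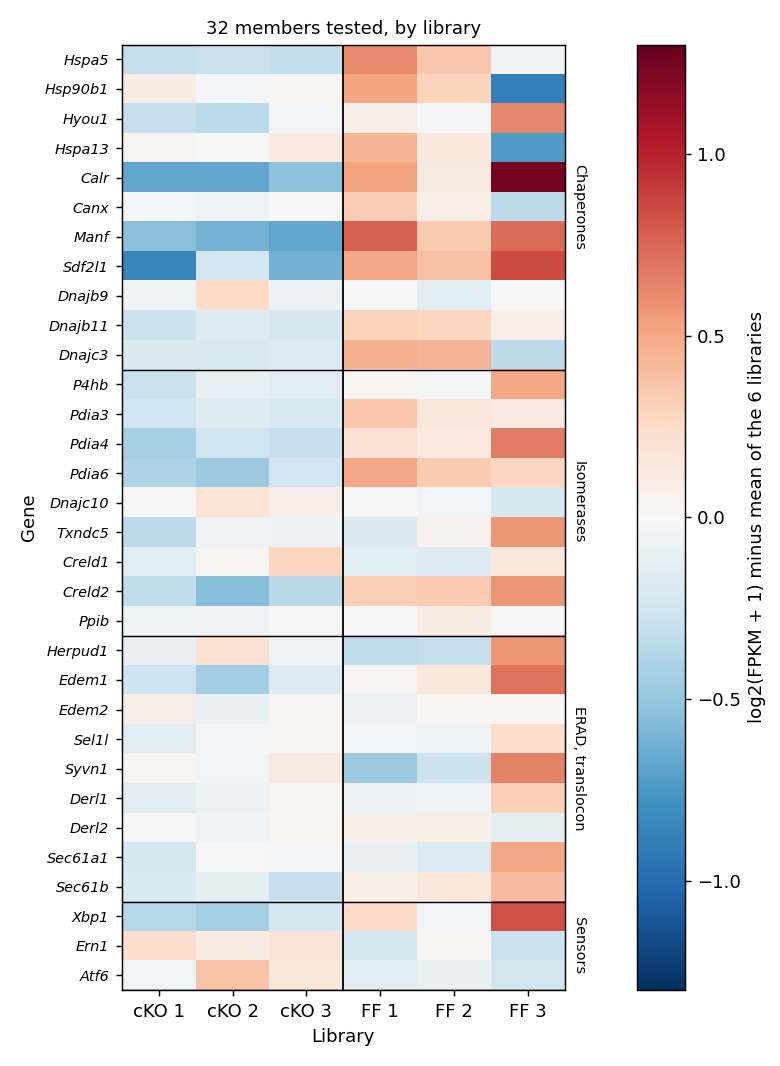
Level of the 32 genes tested in each library, as log2(FPKM + 1) minus the mean of the 6 libraries, with the 3 cKO hearts left of the line and the 3 FF hearts right of it. Blue in the cKO columns is concentrated in the chaperone and isomerase blocks, and FF replicate 3 differs in colour from FF replicates 1 and 2 in many rows.

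None of the 9 ERAD and Sec61 channel genes tested passed in either comparison. Their median log2 difference was -0.09 with 6 libraries, with 6 below and 3 above 0, and 0.00 without FF replicate 3, with 4 below and 5 above 0. Edem1, which draws misfolded glycoproteins into ERAD, had 3.77, 3.25 and 4.13 FPKM in cKO hearts and 4.92, 5.33 and 8.41 FPKM in FF hearts, while its relative Edem2 was at 5.80 ± 0.384 FPKM in cKO and 5.71 ± 0.273 FPKM in FF hearts (SD, n = 3 each). The Edem1 groups did not overlap, but its adjusted p = 0.0794 (limma, without FF replicate 3) missed the threshold. Syvn1, the ubiquitin ligase of the main ERAD complex, had 5.35, 5.09 and 5.75 FPKM in cKO hearts and 3.48, 4.13 and 8.74 FPKM in FF hearts. Herpud1, which organises that complex, had 33.4, 41.3 and 34.7 FPKM in cKO hearts and 28.3, 29.0 and 53.7 FPKM in FF hearts. In both genes the cKO hearts lay above FF replicates 1 and 2 and below FF replicate 3, and the log2 differences without it were 0.41 (95% interval 0.15 to 0.67) and 0.33 (95% interval 0.06 to 0.60), with adjusted p = 0.0559 and 0.0954 in limma. The annotated span of Syvn1 overlaps other genes, among them Mrpl49 on the other strand. An overlapping gene had up to 622 reads in a library, against 289 to 813 for Syvn1.

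The adaptor Sel1l, at 10.6 ± 0.693 FPKM in cKO and 11.4 ± 1.42 FPKM in FF hearts, and the derlins, which form part of the exit channel, were close between groups. Derl1 was at 24.1 ± 1.61 FPKM in cKO and 26.6 ± 4.23 FPKM in FF hearts and Derl2 at 3.81 ± 0.123 FPKM in cKO and 3.87 ± 0.382 FPKM in FF hearts (SD, n = 3 each). Without FF replicate 3 the 95% interval of the log2 difference was -0.22 to 0.22 for Sel1l, -0.22 to 0.21 for Derl1 and -0.31 to 0.14 for Derl2. Derl3, the derlin of professional secretory cells, had 2 to 10 reads per library and was not tested. Of the channel genes, Sec61b had 7.77, 8.24 and 7.18 FPKM in cKO hearts and 9.59, 10.2 and 12.3 FPKM in FF hearts with no overlap (adjusted p = 0.0743 without FF replicate 3, limma), and Sec61a1 overlapped, at 14.4 ± 1.27 FPKM in cKO and 16.5 ± 4.76 FPKM in FF hearts (SD, n = 3 each).

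None of the 3 sensors and transcription factors passed in either comparison. Xbp1, whose product raises chaperone genes, had 17.0, 16.2 and 18.9 FPKM in cKO hearts and 26.7, 21.7 and 40.3 FPKM in FF hearts. Ern1, the sensor kinase that splices the Xbp1 mRNA, had 2.32, 2.05 and 2.21 FPKM in cKO hearts and 1.44, 1.94 and 1.36 FPKM in FF hearts. Atf6 had 10.04, 13.6 and 11.4 FPKM in cKO hearts and 9.23, 9.55 and 8.55 FPKM in FF hearts. Xbp1 was thus lower in every cKO heart and both sensors were higher in every cKO heart, with log2 differences without FF replicate 3 of -0.45 (SE 0.12, adjusted p = 0.0577) for Xbp1, 0.25 (SE 0.12, adjusted p = 0.205) for Ern1 and 0.28 (SE 0.13, adjusted p = 0.191) for Atf6, in limma. Gene-level FPKM does not show how much Xbp1 mRNA was spliced.

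Set against the promoter sequences printed above, 5 of the 9 genes that fell without FF replicate 3 and had a window held an ERSE (Hspa5, Calr, Pdia6, Dnajc3 and Creld2), and 3 of the 17 tested genes with a window that did not pass (Hsp90b1, Canx and Syvn1). Pdia3, Pdia4 and Sdf2l1 fell without an exact match to any of the 3 motifs in the window. Outside the set, 28 more genes had an ERSE and 9 of them were tested. Of these 1 fell (Hnrnpa3) and 1 rose (Pan2) without FF replicate 3, where 6.26% of all genes fell and 5.73% rose, and their median log2 difference was -0.0050.

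FF replicate 3 touched these genes in both directions. It lay above all other libraries in 15 of the 32, against 34.6% of all genes tested, and below all others in 8, against 33.3%. The largest ratios to the mean of FF replicates 1 and 2 were 2.30 for Syvn1, 1.89 for Calr and 1.87 for Herpud1, and the smallest were 0.395 for Hspa13, 0.399 for Hsp90b1 and 0.548 for Dnajc3. Across the 32 genes the log2 ratio was higher at higher GC content of the transcript (Spearman's rho 0.643, a description over genes of the same 3 libraries). Over all genes tested, deviations of FF replicate 3 from the mean of the 6 libraries had a rho of 0.610 with GC content. The rho was -0.478 and -0.312 for FF replicates 1 and 2, and -0.378, -0.061 and -0.049 for cKO replicates 1, 2 and 3. The median GC content was 53.0% in the 19 genes where FF replicate 3 was higher than its group mates and 45.6% in the 13 where it was lower. The part of GC content in the differences between groups was tested only by the GC correction named above. Without FF replicate 3 that correction gave 12 members lower, with Sec61b and Xbp1 added, against 7.97% of all genes. It gave 0 higher, against 6.85% of all genes.

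**Figure D4:**
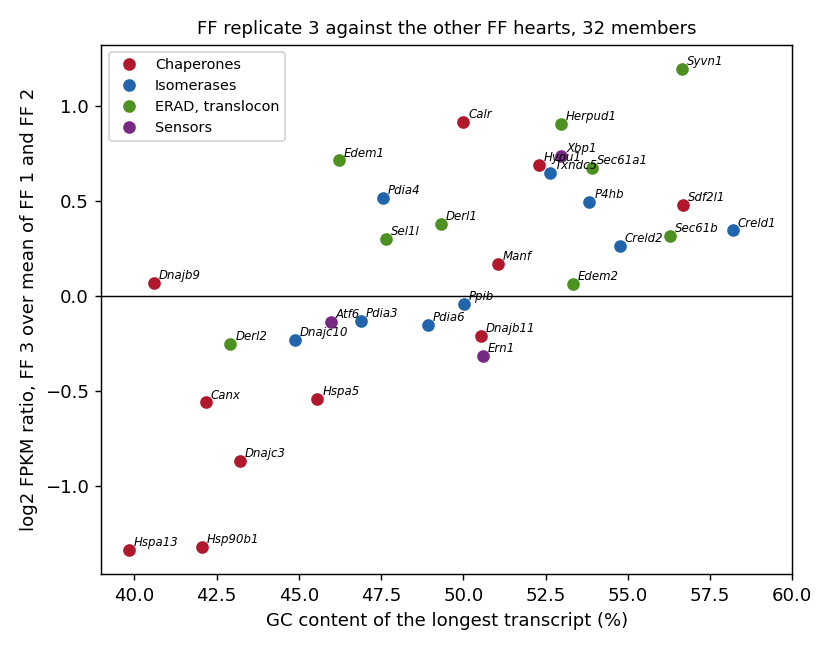
Log2 ratio of FPKM in FF replicate 3 over the mean of FF replicates 1 and 2 against the GC content of the longest transcript, for the 32 genes tested, coloured by role. Points run from Hspa13 and Hsp90b1 at the lower left to Syvn1 at the upper right (Spearman's rho 0.643).

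Secretory genes outside the set were read from 4 further lists. Of 25 genes tested of the translocon, signal peptidase and oligosaccharyltransferase, 5 fell without FF replicate 3, against 6.26% of all genes, and 0 rose, with a median log2 difference of -0.23. They were Ostc (-0.55, SE 0.10) and Rpn1 (-0.46, SE 0.10), subunits of the transferase that attaches glycans, Ssr2 (-0.52, SE 0.08) and Ssr1 (-0.47, SE 0.09) of the translocon-associated complex, and Tram1 (-0.44, SE 0.10). Of 25 other folding genes, Serpinh1, the collagen chaperone, fell to 158 ± 9.79 FPKM in cKO hearts (SD, n = 3), against 232 and 219 FPKM in FF replicates 1 and 2, and the J protein gene Dnajb12 rose by 0.45 (SE 0.11). Of 27 other ERAD genes, Selenok and Selenos, selenoproteins of the ERAD complex, fell, with log2 differences of -0.62 (SE 0.08) and -0.42 (SE 0.09). Of 19 other regulators of the unfolded protein response, Atf4, the effector of the PERK branch, fell with -0.45 (SE 0.08), and Nfyc, a subunit of the factor that binds CCAAT, rose with 0.57 (SE 0.08). The shares called lower in the folding, ERAD and regulator lists were 4%, 7.41% and 5.26%, against 6.26% of all genes. The shares called higher were 4%, 0% and 5.26%, against 5.73% of all genes. These shares were near those of all genes. With 6 libraries no gene tested in the 4 lists passed, where 0.166% of all genes tested were called. The medians of the folding, ERAD and regulator lists without FF replicate 3 were -0.17, 0.03 and -0.02.

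Markers of other cell types also differed between the libraries. Summed levels of 8 fibroblast markers were 476 to 607 FPKM in cKO and 589.8 to 856 FPKM in FF hearts, and those of 6 endothelial markers 219 to 273 FPKM in cKO and 240.3 to 373 FPKM in FF hearts. Macrophage markers (6 genes) summed to 28.2 to 36.7 FPKM in cKO and 38.3 to 79.7 FPKM in FF hearts, and plasma cell and B cell markers (6 genes) to 1.83 to 2.57 FPKM in cKO and 4.99 to 19.2 FPKM in FF hearts, so that the groups did not overlap for either. Erythroid markers (6 genes) overlapped, at 890.4 to 1095 FPKM in cKO and 752 to 1553 FPKM in FF hearts. The markers within a list did not all go one way. Of the fibroblast markers Col3a1, Dcn and Lum were lower in every cKO heart, 4 overlapped, and Tcf21 was at 9.40, 11.5 and 10.1 FPKM in cKO hearts and 6.06, 6.87 and 7.81 FPKM in FF hearts. Every cKO heart was below every FF heart in 3 macrophage markers (C1qa, C1qb and Adgre1) and 2 endothelial markers (Tek and Kdr). The same held for 3 plasma cell and B cell markers (Ighm, Igkc and Cd79a). The others in these lists, with Mrc1 and Mzb1 among them, overlapped. Of all genes tested, 14.5% had every cKO value below every FF value and 13.5% had every cKO value above. Cd79a was near 0, with 0 to 0.243 FPKM in cKO and 0.281 to 0.968 FPKM in FF hearts. None of the markers was at 0 in all 6 libraries. Their part in the lower ER chaperone levels was not tested.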

How the data were processed

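The authors deposited FPKM values for 56748 genes in 6 libraries, per the file headers. The labels' protocols name the miRNeasy micro kit for RNA and the Ovation Ultralow V2 kit. TopHat2 2.0.13, featureCounts, Subread, edgeR and FastQC appear in the submitters' processing notes, as do GRCm39, mm10 and GRCh38, without saying what each did. No strand setting is stated, so overlapping genes may share reads. Of the members, 15 overlapped another gene. For Derl2 this was Mis12 on the other strand, with up to 394 reads in a library against 526 to 683 for Derl2. FPKM times gene length gave whole multiples of a step per library (100% within 0.1 of a whole number, values under 200 reads), from which reads were recovered. Tests ran in R 4.3.3 with limma 3.58.1, on log2(FPKM + 1), which understates changes of low genes. The model held the group alone, with a variance trend over expression and a filter at a mean of 1 FPKM over the 6 libraries. The test was also run on simulated data, which held no library like FF replicate 3 and no trend with GC content. That run therefore does not show how the test behaves with such a library. GC content came from GENCODE M21 transcripts, for 98.4% of genes tested. Promoters came from RefSeq on GRCm38.p6, matched by symbol. All members were named. Of each further list up to 4 genes past the threshold were named by size of difference, while Tram1, Hnrnpa3 and Pan2 were chosen with their values in view. The members and lists were chosen with earlier results of these data known, so counts and medians over them are descriptions beside those over all genes. Alternatives covered pseudocounts, filters, scaling, variance priors, library weights, GC correction, a replicate block and each library left out.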

Additional observations from a re-analysis of the deposited data

How the results depend on the processing

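The count of members past the threshold moved with the treatment of FF replicate 3 and with the number of FF libraries. With 6 libraries 0 passed in the main test. Manf alone was lower with a mean FPKM of at least 5 (0.429% of all genes tested) and with quantile normalization (0.221%). With GC correction 6 were lower (1.82% of all genes were called lower). Library weights gave 13 lower and 2 higher (17.0% and 16.9% of all genes). Leaving out single libraries gave 0 to 10 lower, with 10 without FF replicate 3 and 0 without any other. Without FF replicate 3, where 10 were lower and 0 higher, 0 were lower with no filter, where 0 of 29654 genes tested were called. Leaving out a further cKO library gave 9 lower without replicate 1, 8 without replicate 2 and 1 without replicate 3. Of all genes, 7.90%, 2.19% and 0.379% were called lower in these runs. Without FF replicate 1 or 2 as well, the lone FF sample is assumed to vary like the cKO samples. The median log2 difference of the members was then -0.18 and -0.29. With FF replicate 3 alone left out, 1 was higher with a mean FPKM of at least 5 (Syvn1), quantile normalization (Herpud1), the robust variance prior (Syvn1) or library weights (Syvn1). Of all genes tested, 9.54%, 6.67%, 7.19% and 8.33% were called higher under these settings. The cause was not tested. The median log2 difference of the members without FF replicate 3 ran from -0.29 to -0.18 when a further library was left out. It was below 0 in every alternative run.

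The labels do not say whether equal numbers mark paired libraries, and the values do not settle it. Deviations from the group means correlated at 0.383, -0.24 and 0.239 for numbers 1, 2 and 3. Of the 6 libraries, 4 correlated best with their own number. With the replicate block 0 members passed with 6 libraries, and 3 lower (Calr, Manf and Pdia6) without FF replicate 3, against 1.23% of all genes. GC correction and the replicate block together gave 0 and 6 lower, against 0% and 2.66% of all genes.

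The members called without FF replicate 3 kept a negative difference in every alternative run. Small differences of other members changed sign. With 6 libraries and library weights these were Hsp90b1 (-0.28), Hspa13 (-0.090), Edem2 (-0.00046), Sel1l (0.027), Derl1 (0.0036) and Sec61a1 (0.10), with GC correction, with and without the block, Hsp90b1 (-0.048), Hspa13 (-0.016) and Dnajb9 (-0.033), and with quantile normalization Canx (0.093) and Edem2 (-0.0024). Leaving out single libraries gave -0.37 to 0.33 for Hsp90b1, -0.23 to 0.36 for Hspa13, -0.23 to 0.11 for Canx, -0.018 to 0.15 for Dnajb9, -0.12 to 0.33 for Herpud1, -0.016 to 0.064 for Edem2, -0.15 to 0.00043 for Sel1l, -0.15 to 0.41 for Syvn1, -0.082 to 0.019 for Derl2 and -0.28 to 0.061 for Sec61a1. Without FF replicate 3 the sign changed for Sel1l with the replicate block (-0.032) and GC correction (-0.016), for Edem2 with GC correction (-0.0084), for Edem2 (-0.014), Sel1l (-0.047) and Sec61a1 (-0.013) with both, and for Derl1 with median-ratio scaling (0.0061), quantile normalization (0.046) and library weights (0.026). With a further library left out it ran from -0.21 to 0.036 for Txndc5, -0.012 to 0.087 for Edem2, -0.032 to 0.050 for Sel1l and -0.053 to 0.039 for Derl1.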
